A study of Solanum lycopersicum with 12 samples.

Results

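The family described here is that of the light-harvesting chlorophyll a/b-binding proteins of photosystems I and II (LHCA and LHCB) in tomato (Solanum lycopersicum) leaves. Its gene models were taken from a list of 31 tomato gene IDs, matched to the counted gene models by the part of the ID before the first dot, and IDs are printed in that short form. Of the 31 IDs, 29 matched 1 of the 34075 gene models in the table, and the other 2, Solyc03g005790 and Solyc05g056070, were not analysed here. Neither the table nor the gene list at hand pairs these IDs with gene names, so that members are called by ID and are not sorted into LHCA and LHCB. The first digits of each ID give its chromosome.

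Light-harvesting proteins are encoded in the nucleus, imported into the chloroplast and inserted into the thylakoid membrane, where they hold chlorophyll a, chlorophyll b and carotenoids. LHCA proteins form the antenna of photosystem I and LHCB proteins that of photosystem II, and both pass absorbed light energy to the reaction centres. Their messenger RNAs are among the most abundant in a green leaf and are known to follow light, the circadian clock and the state of the chloroplast. In tomato several members lie in tandem arrays of very similar copies.

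The study is about stress combination in tomato plants. Leaf RNA was compared in 4 groups of 3 libraries, labelled Control, Salinity, Heat and Salinity + heat, the last called the combination here. The genotype, plant age, salt dose, temperature, duration and number of plants per library are not given in the sources used here. Nothing says that the libraries of a group come from separate plants, so p-values measure the spread between these libraries, which may be technical.

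Total counts lay between 56281339 and 78370751 per library. Levels are given as CPM, counts per 1000000 of a library size scaled with TMM factors, and the scaling was uneven in the salinity group. The TMM factor of a library was between 0.880 and 0.953 in control, between 1.12 and 1.17 in heat and between 1.02 and 1.23 in the combination, but it was 0.995, 0.668 and 0.880 in salinity replicates 1, 2 and 3. Salinity replicate 2 thus stood apart, and CPM values of this library are raised relative to its share of counts. As a check of the tissue, 4 gene models listed from general knowledge as Rubisco small subunits and Rubisco activase, which mark leaf mesophyll, summed to between 74919 and 86341 CPM in control, whereas 3 ripe-fruit markers summed to at most 20.7 CPM in any library, with 1 of the 3 at 0 throughout.

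The 29 gene models together took a smaller part of the leaf messenger RNA in both heated groups than in control. They made up 15.4%, 14.5% and 16.4% of all counts in control replicates 1, 2 and 3. In heat they made up 10.05%, 9.47% and 11.1%, and in the combination 9.19%, 11.5% and 10.2%. Each heated library was below each control library. In salinity the share was 11.1%, 15.5% and 13.5%, which overlapped with control. Group means were 15.4% ± 0.926 in control, 10.2% ± 0.818 in heat, 10.3% ± 1.17 in the combination and 13.4% ± 2.20 in salinity (SD, n = 3 each). The share in heat was 1.51-fold lower than in control. On the scaled level, summed CPM was 166931 ± 17392 in control, 89464 ± 7207 in heat, 92118 ± 19558 in the combination and 165956 ± 61158 in salinity (SD, n = 3 each), a 1.87-fold lower mean in heat than in control and a 1.81-fold lower mean in the combination. Without salinity replicate 2 the salinity mean was 132815 CPM. No test was made on these sums, since 3 libraries against 3 cannot give an exact two-sided permutation p under 0.1.

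**Figure D1:**
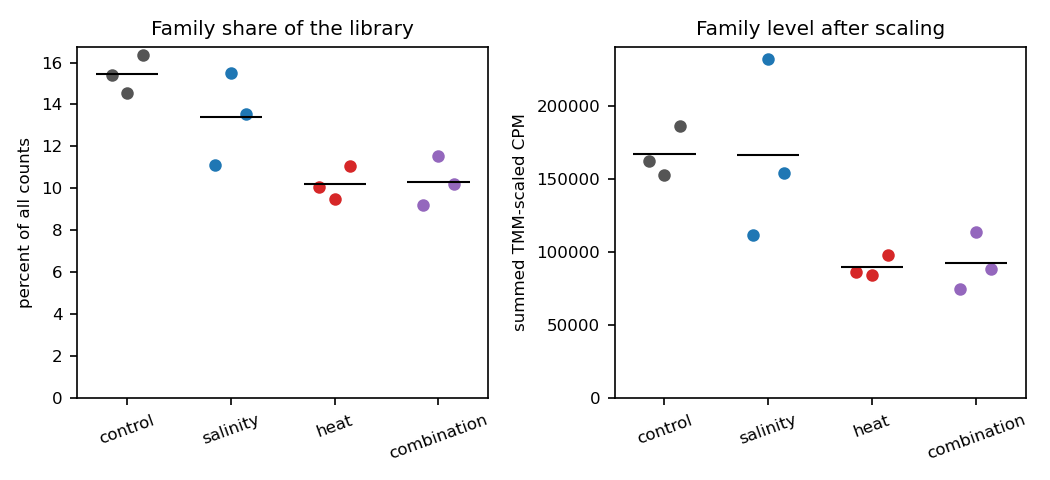
Summed light-harvesting gene models in each library, as percent of all counts (left) and as summed TMM-scaled CPM (right), for the 4 groups; each point is 1 library and each line a group mean of 3. Every heat and combination library lies below every control library in both panels, while the salinity libraries spread from 111711 to 232238 CPM.

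The summed level of the 4 mesophyll markers was lower in heat, as that of the family was. It was between 43382 and 49685 CPM in heat and between 37927 and 45684 CPM in the combination, below the control range. In salinity it was between 64741 and 119140 CPM, where the highest library exceeded control. The markers differed, however. In heat Solyc02g063150, Solyc03g034220 and Solyc02g085950 had log2 fold changes of -0.76, -1.48 and -1.01. Solyc10g086580 had one of 0.32, with a mean of 12257 CPM in control and 15330 CPM in heat (edgeR adjusted p = 0.238). In salinity it was lower than in control (log2 fold change -1.31, edgeR adjusted p = 0.000524). A phloem marker stood between 323 and 464 CPM in control, and lower in each stressed group, between 260 and 320 CPM in salinity, between 199 and 210 CPM in heat and between 125 and 215 CPM in the combination. Markers of epidermis and cuticle summed to between 191 and 195 CPM in control and between 178 and 197 CPM in salinity. They summed to between 170 and 205 CPM in heat and between 135 and 168 CPM in the combination. These sums hide a difference between markers. Solyc01g091630 had log2 fold changes of -0.99 in salinity and -0.85 in the combination (edgeR adjusted p = 0.000653 and 0.00245). Solyc02g085870 had changes of 0.31 and -0.16, not called. The 4 trichome markers summed to at most 5.29 CPM in any library. The part of these changes in the results for the family was not tested. In bulk leaf RNA, fewer cells of a type and less RNA per cell cannot be told apart.

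Of the 29 gene models, 28 passed the filter on low counts and were tested. The exception was Solyc02g071030, the last ID of the array on chromosome 2, with between 0 and 7 counts in a library. Gene models are described as called, and as having risen or fallen, where the adjusted p of the edgeR quasi-likelihood test was under 0.05 after Benjamini-Hochberg adjustment over all 20717 gene models tested.

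Heat alone lowered most of the family. By the edgeR test 21 of the 28 members (75%) fell against control and none rose, whereas 39.9% of all tested gene models were called, 15.2% as lower and 24.6% as higher. The fitted change was below 0 in each of the 28, from -0.01 to -2.80 on the log2 scale, and in 26 of them with total counts in place of TMM scaling, which moved the median of all tested gene models to 0.44. The median log2 fold change of the 28 was -0.89, against a median of 0.14 over all tested gene models. In 26 of the 28 each heat library was below each control library, which held for 23.3% of all tested gene models, while no member lay wholly above control, as 34% of all tested gene models did. Of the 21, 12 fell by a log2 change of at least 1, and the share of all tested gene models that did so was not computed. Without control replicate 3, and likewise without heat replicate 1 or heat replicate 2, 13 members were called, all as lower.

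Solyc02g070990, in the chromosome 2 array, had the lowest fitted change in heat. Its level was 3027, 2761 and 3401 CPM in the control libraries and 352, 389 and 574 CPM in the heat libraries. Heat libraries were thus all far below control, with a log2 fold change of -2.80 (SE 0.43, adjusted p = 0.000756), a 6.99-fold difference. The SE is approximate, from the fold change and the F statistic of the test. In salinity the 3 libraries disagreed, at 741, 2848 and 1192 CPM, and in the combination they were at 208, 411 and 307 CPM.

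Solyc06g069730 on chromosome 6 followed with a log2 fold change of -2.33 in heat (SE 0.40, adjusted p = 0.00142). It stood at 2873, 3025 and 3039 CPM in control, at 520, 538 and 720 CPM in heat and at 483, 921 and 560 CPM in the combination. The 6 heated libraries did not overlap with control. In salinity it was at 1366, 5272 and 2804 CPM, where replicate 2 alone exceeded control.

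Solyc12g006140, on chromosome 12, held 7.50% ± 0.828 of the family's counts in control (SD, n = 3), with no correction for gene length. Its level was 11693, 10452 and 15708 CPM in control and 3744, 3068 and 4125 CPM in heat. This was a 3.46-fold fall, with a log2 fold change of -1.79 (SE 0.40, adjusted p = 0.00537). In the combination it stood at 2690, 6709 and 4283 CPM, again below control. Its salinity libraries, at 10612, 32387 and 17683 CPM spread from just above the lowest control library to well above the highest.

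In the chromosome 3 array each of the 3 counted members changed in the same direction, and 2 of them were called lower in heat. Solyc03g005780 stood at 9779, 8730 and 13460 CPM in control, at 3091, 2766 and 3844 CPM in heat and at 2003, 5003 and 2718 CPM in the combination. Its log2 fold change in heat was -1.72 (SE 0.37, adjusted p = 0.00448). Its neighbour Solyc03g005770 fell from 3159, 2791 and 4303 CPM to 1331, 1170 and 1600 CPM (log2 fold change -1.32, adjusted p = 0.0041). The first ID of the array, Solyc03g005760, was at 5111, 5260 and 6119 CPM in control and 3983, 3866 and 4659 CPM in heat. These libraries did not overlap, but it was not called (adjusted p = 0.138), whereas the DESeq2 Wald test called it lower (adjusted p = 0.0372).

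In the chromosome 2 array, 7 of the 8 members were tested and each fell in heat, by log2 changes from -0.66 to -2.80. Solyc02g070980 was at 4935, 4605 and 5752 CPM in control and at 1225, 1087 and 1599 CPM in heat, with a log2 fold change of -1.97 (SE 0.40). Solyc02g070950 was at 5084, 4715 and 6048 CPM in control and at 1305, 1361 and 1885 CPM in heat (log2 fold change -1.80, SE 0.34). Solyc02g070970 was at 4661, 4147 and 5598 CPM in control and at 1895, 1635 and 2161 CPM in heat, a log2 change of -1.34. The adjusted p of these 3 was 0.00317, 0.00225 and 0.00542. Solyc02g071010 went from 8770, 8546 and 10624 CPM to 4675, 4384 and 5265 CPM (log2 fold change -0.96, adjusted p = 0.0105). Solyc02g070940, the first ID, changed least, from 7704, 7617 and 9189 CPM to 5008, 4802 and 5742 CPM (log2 fold change -0.66, adjusted p = 0.0269), and its call was lost without control replicate 3 (as it was without heat replicate 1 or 2).

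**Figure D2:**
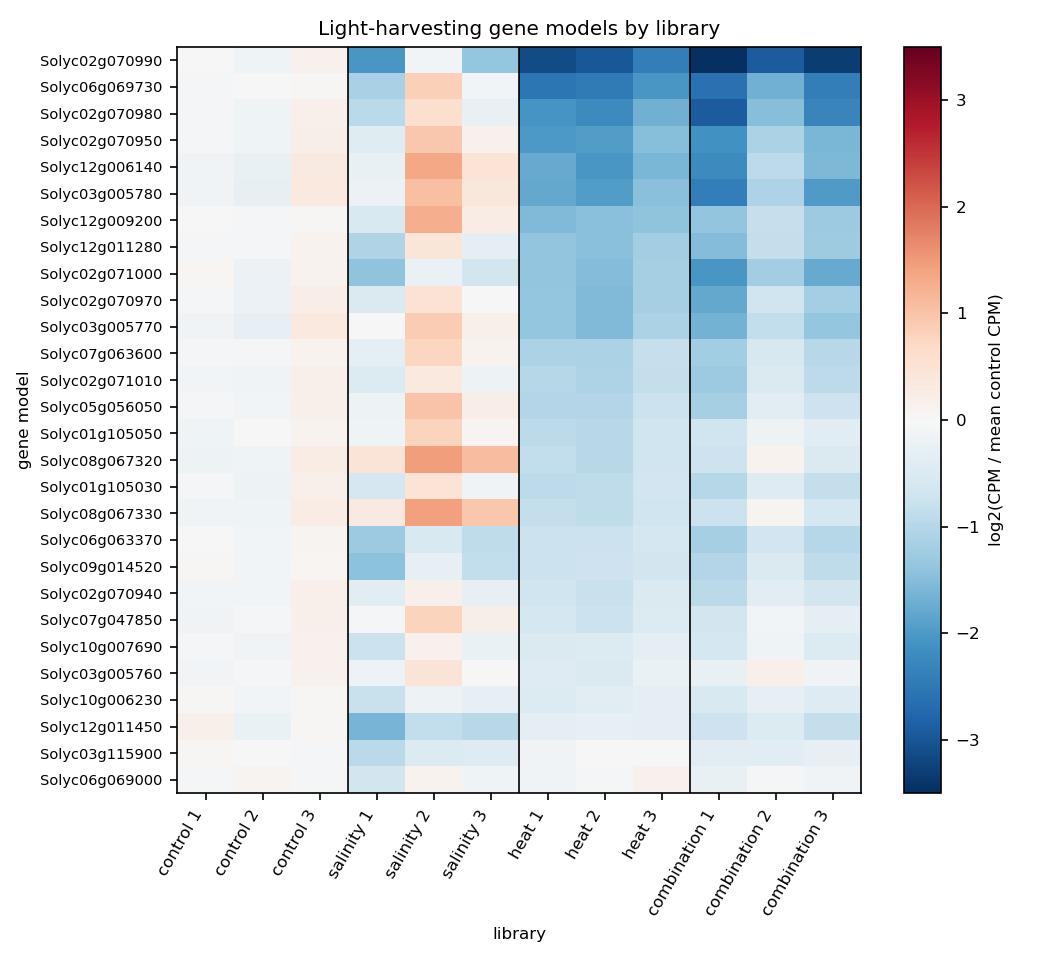
The 28 tested gene models (rows, ordered by their change in heat) in the 12 libraries (columns); colour gives log2 of the CPM over the mean control CPM, blue for lower and red for higher. The upper rows are blue in the heat and combination columns, and the salinity columns differ among themselves, with replicate 2 the reddest.

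Falls in heat were also found in other members. Solyc07g063600, on chromosome 7, was at 7362, 7440 and 8509 CPM in control and at 3587, 3601 and 4420 CPM in heat (log2 fold change -1.01, adjusted p = 0.0111). Both chromosome 1 neighbours fell. Solyc01g105050 went from 4643, 5189 and 5521 CPM to 2695, 2631 and 3131 CPM, a log2 change of -0.86, and Solyc01g105030 had a log2 change of -0.82. Their adjusted p-values were 0.015 and 0.0221, and both calls were lost without control replicate 3, heat replicate 1 or heat replicate 2. On chromosome 12, Solyc12g009200 was at 667, 654 and 680 CPM in control and at 227, 244 and 252 CPM in heat, with a log2 fold change of -1.47 (SE 0.34, adjusted p = 0.00637). Solyc02g070990's neighbour Solyc02g071000, Solyc05g056050 and Solyc12g011280 also fell, with log2 changes of -1.35, -0.93 and -1.35, and the call of Solyc05g056050 was lost in the same fits as those of the chromosome 1 neighbours. The other 4 called members, Solyc06g063370, Solyc09g014520, Solyc08g067320 and Solyc08g067330, had log2 changes of -0.71, -0.71, -0.84 and -0.81 and are described with salinity.

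The 7 members not called in heat differed among themselves. Solyc03g115900, on chromosome 3 but far from the array, was at 6279, 5893 and 5713 CPM in control and at 5498, 6073 and 5946 CPM in heat, and these overlapped (adjusted p = 0.901). Solyc12g011450 was at 5411, 4079 and 4913 CPM in control and 3767, 3910 and 3853 CPM in heat, without overlap (adjusted p = 0.234). Solyc07g047850 was at 12041, 12372 and 14660 CPM in control and at 8444, 7774 and 9384 CPM in heat. Its libraries did not overlap, and with an adjusted p of 0.0588 it missed the threshold. The DESeq2 Wald test called it lower, with an adjusted p of 0.00789. The other uncalled members were Solyc03g005760, Solyc10g006230, Solyc10g007690 and Solyc06g069000, the last at between 11.6 and 20.1 CPM in any library. In Solyc10g006230 and Solyc10g007690 each heat library was below each control library. The DESeq2 Wald test called both lower (adjusted p = 0.0128 and 0.0431).

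Heat added to salinity was compared as the combination against salinity. It lowered 19 of the 28 members (67.9%) and raised none by the edgeR test, beside 44.5% of all tested gene models called, 20.1% as lower and 24.4% as higher. The median log2 fold change was -0.96 in the 28 and 0.08 over all tested gene models. In 17 members each combination library was below each salinity library, beside 23% of all tested gene models. In 2 members, Solyc03g115900 and Solyc12g011450, each was above, beside 28.5% of all tested gene models. These 2 had log2 fold changes of 0.26 and 0.45 and were not called. Of the 19, 18 were also called lower in heat against control. That comparison shares no library with this one but comes from the same fit. The share of all tested gene models called lower in both was not computed. The exception among the 19 was Solyc07g047850, at 12529, 22335 and 15100 CPM in salinity. It was at 8368, 12185 and 10429 CPM in the combination (log2 fold change -0.69, adjusted p = 0.0332). This call was lost with total counts, with only the salinity and combination libraries fitted, and without salinity replicate 2, combination replicate 1 or combination replicate 3, where its adjusted p reached at most 0.142. The calls of Solyc01g105030, Solyc01g105050, Solyc02g071010 and Solyc12g011280 were lost in the same fits. That of Solyc02g071000 was lost in these fits except with total counts. Of the 19 calls, 13 were kept in every alternative fit by gene model and in every fit that left out a library. Without salinity replicate 2 the median was -0.60, with 13 members called lower and 1 higher. With total counts in place of TMM scaling 14 were lower and 6 higher, and the median over all tested gene models moved by more than 0.1, to 0.50.

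The largest falls again included the members that heat alone lowered most. Solyc02g070990 had a log2 fold change of -2.37 (SE 0.43, adjusted p = 0.000967), Solyc06g069730 of -2.26 (SE 0.40, adjusted p = 0.000889) and Solyc03g005780 of -2.22 (SE 0.38, adjusted p = 0.000716). Solyc12g006140 fell by 2.15 on the log2 scale (adjusted p = 0.00132). Each of the 4 had its 3 combination libraries below its 3 salinity libraries. Set member by member, the change by heat alone and the change by heat on top of salinity correlated with a Pearson r of 0.91 and a Spearman rho of 0.91 (n = 28 members). Over all tested gene models Pearson's r was 0.62. The members share their libraries and the very similar ones may share reads, so they are not independent points, and this is a description only.

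Salinity alone gave few calls in the family. By the edgeR test 4 members fell and 2 rose against control, and 22 were not called. This share of 21.4% stood below the 47.4% of all tested gene models called in this comparison, of which 23.8% were lower and 23.6% higher. The median log2 fold change was 0.03 in the 28 and 0.04 over all tested gene models, with 14 members above and 14 below 0. Without salinity replicate 2 the median was -0.32, and 7 members were called lower and 1 higher. Without salinity replicate 1 it was 0.23, with 3 called lower and 4 higher. With total counts in place of TMM scaling 9 members were lower and 2 higher.

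Among the 4 that fell, Solyc12g011450 was at 5411, 4079 and 4913 CPM in control and at 1564, 2620 and 2442 CPM in salinity, with no overlap. Its log2 fold change was -1.12 (SE 0.21, adjusted p = 0.00119), a 2.17-fold difference, while its change in heat was not called. Solyc06g063370 was at 13937, 13231 and 15137 CPM in control and at 5879, 9773 and 7683 CPM in salinity (log2 fold change -0.86, SE 0.22, adjusted p = 0.00634). It also fell in heat, to 8422, 8302 and 9158 CPM (log2 fold change -0.71, adjusted p = 0.0217), a call lost without control replicate 3, heat replicate 1 or heat replicate 2.

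Solyc09g014520, on chromosome 9, was at 11766.5, 10556.5 and 11823.7 CPM in control and at 4239, 9268 and 6243 CPM in salinity. Its log2 fold change was -0.79 (SE 0.26, adjusted p = 0.0229). In heat it was at 6822, 6856 and 7248 CPM (log2 fold change -0.71, adjusted p = 0.044). Both calls were fragile: that in salinity held in 8 of 12 fits that each left out a library, and that in heat in 3 of 12. Solyc03g115900 was at 3124, 4283 and 4350 CPM in salinity, each below the lowest control library. The log2 fold change was -0.61 (SE 0.17, adjusted p = 0.0121), and the call was kept whichever library was left out, but lost when only the control and salinity libraries were fitted.

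The only members called higher in salinity were the neighbours Solyc08g067320 and Solyc08g067330 on chromosome 8, named here after their values were seen. Solyc08g067320 was at 132, 135 and 180 CPM in control and at 204, 408 and 313 CPM in salinity, without overlap. The log2 fold change was 1.05 (SE 0.26, adjusted p = 0.00599). Solyc08g067330 was at 149, 148 and 198 CPM in control and at 204, 450 and 319 CPM in salinity (log2 fold change 0.98, SE 0.28, adjusted p = 0.0122), and its call was lost without control replicate 1 or salinity replicate 2. Both fell in heat, with log2 fold changes of -0.84 and -0.81 (adjusted p = 0.0233 and 0.0349). The heat call of Solyc08g067320 was lost without control replicate 3, heat replicate 1 or heat replicate 2, and that of Solyc08g067330 held in 7 of 12 fits that each left out a library, being lost without control replicate 2 or 3 or any of the heat replicates.

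**Figure D3:**
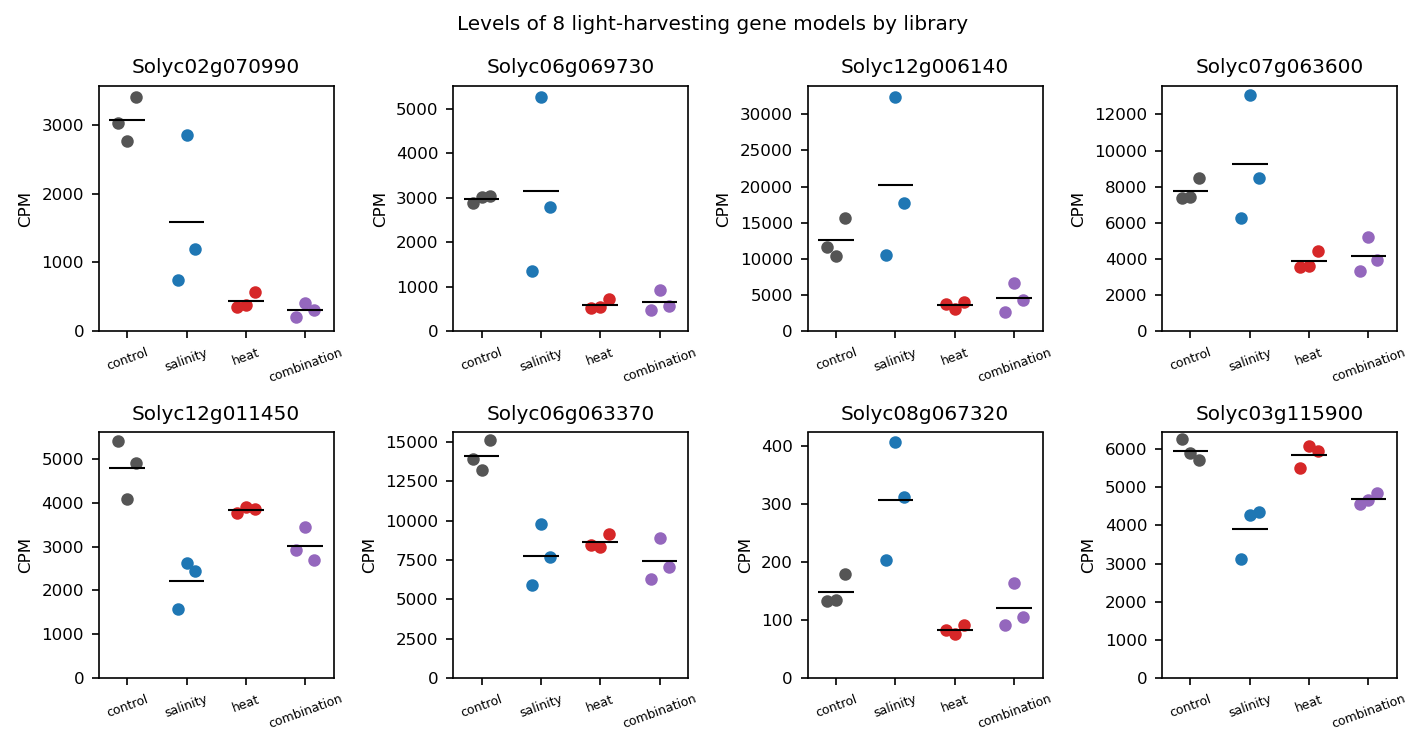
CPM of 8 gene models, picked after their values were seen to show the range of responses; points are libraries, lines are means of 3, and each axis starts at 0. Solyc02g070990, Solyc06g069730, Solyc12g006140 and Solyc07g063600 are low in both heated groups, Solyc12g011450 is lowest in salinity, Solyc06g063370 is highest in control, Solyc08g067320 is highest in salinity, and Solyc03g115900 is lowest in salinity with heat at the level of control.

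Under both stresses together the family stood near its level in heat alone. Against control 18 of the 28 members (64.3%) were called lower in the combination and none higher by the edgeR test, beside 32.5% of all tested gene models, 15.1% as lower and 17.5% as higher. The fitted changes ran from -0.06 to -3.31 (2 of the 28 were above 0 with total counts in place of TMM scaling), with a median of -0.82 against 0.03 over all tested gene models. In 23 members the combination libraries were all below the control libraries, as in 21.2% of all tested gene models, and in none wholly above, as in 25% of them. Without combination replicate 1, and likewise without combination replicate 3, 10 members were called lower.

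Solyc02g070990 again had the lowest fitted change, a log2 fold change of -3.31 (SE 0.44, adjusted p = 0.000221), or 9.92-fold. Of the members that salinity lowered, Solyc12g011450 was at 2918, 3435 and 2686 CPM in the combination, between its salinity and heat libraries, and fell against control by 0.67 on the log2 scale (adjusted p = 0.0275), a call lost without control replicate 1 or 3 and without combination replicate 1 or 3. Solyc06g063370 was at 6285, 8910 and 7068 CPM and fell by 0.93 (adjusted p = 0.00649). Of the members that salinity raised, Solyc08g067320 was at 90.8, 163 and 106 CPM, which overlapped with control, and was not called (adjusted p = 0.38). The comparisons of salinity, heat and the combination with control share the control libraries, so these values are set side by side and not taken as separate support. Of the 21 members called lower in heat, 17 were called lower in the combination. The other 4 were Solyc01g105050, Solyc05g056050 and the chromosome 8 pair. The same overlap over all tested gene models was not computed.

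When salinity was added to heat, as tested by the combination against heat, none of the 28 members was called, although 40.3% of all tested gene models were, 17% as higher and 23.4% as lower. The libraries did not overlap in 2 members that were higher and 2 that were lower, beside 26.4% and 29.8% of all tested gene models. No member had an unadjusted p under 0.05 in the edgeR test, and DESeq2 called none. The fitted changes lay between -0.51 and 0.53 on the log2 scale, with a median of 0.09, and the lowest adjusted p was 0.121. A missed threshold does not show that the levels were the same. With total counts in place of TMM scaling Solyc01g105050 and Solyc03g005760 were called higher. The change by salinity alone and that by salinity on top of heat, which share no library, correlated over the 28 members with a Pearson r of 0.87 and a Spearman rho of 0.82, beside an r of 0.52 over all tested gene models. This too is a description.

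The interaction, the log2 change by heat in salinity minus that by heat alone, was called for none of the 28 by edgeR and for 8.94% of all tested gene models, 4.73% as higher and 4.21% as lower. One member, Solyc12g011450, had an unadjusted p under 0.05 (interaction 0.77, SE 0.30, adjusted p = 0.121). DESeq2 called 1 member, this same gene model, and total counts in place of TMM scaling gave 3 calls, all positive. The median interaction was 0.10 in the 28 and -0.06 over all tested gene models.

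**Figure D4:**
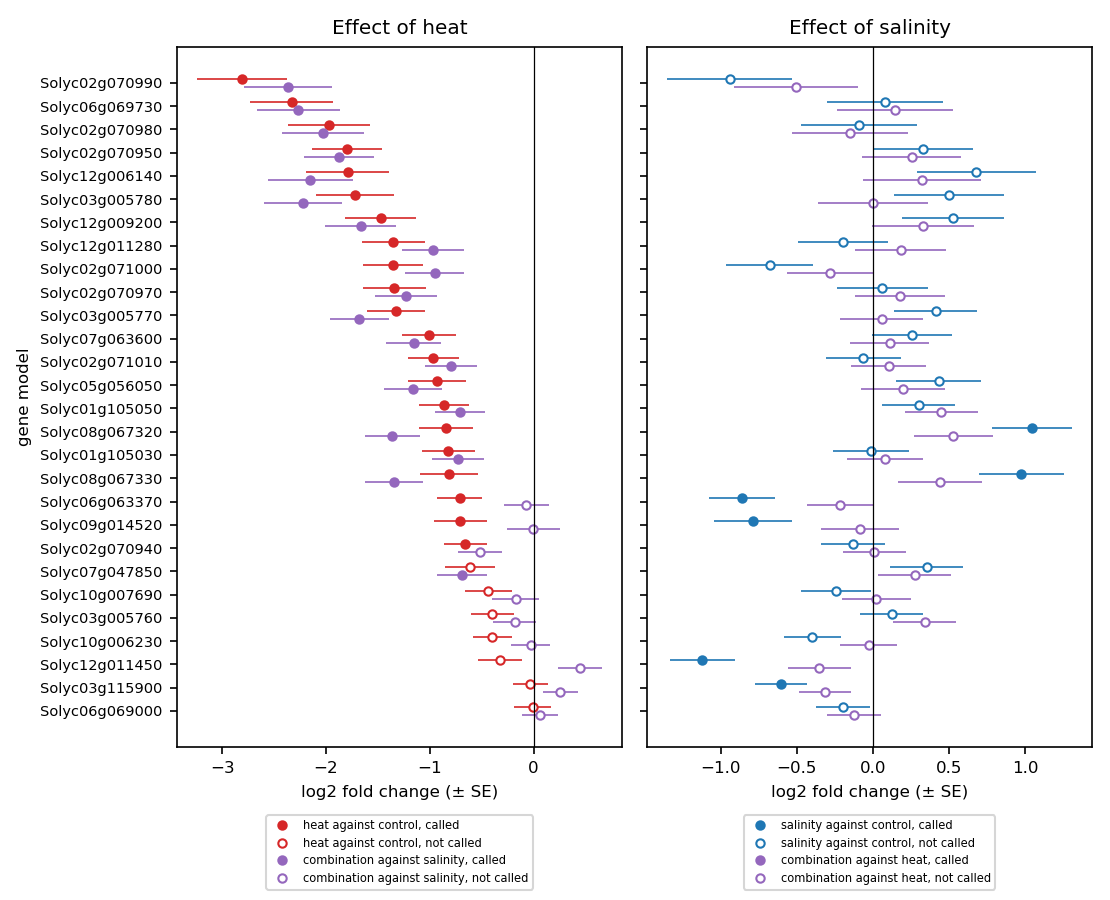
Log2 fold changes (points, with SE bars) of the 28 gene models for heat added to control or to salinity (left) and for salinity added to control or to heat (right), in the same row order; filled points were called at an adjusted p under 0.05. On the left most points lie below 0 in both comparisons, and on the right the called points are 4 below and 2 above 0, from the comparison with control.

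Since the scaling of the salinity libraries was uneven, counts were also compared within a library, where scaling cancels. The pairs were chosen after their values were seen and no test was made. In the chromosome 2 array the ratio of Solyc02g070990 to Solyc02g070940 was 0.393, 0.363 and 0.370 in control and 0.0703, 0.0810 and 0.10001 in heat. It was 0.116, 0.306 and 0.178 in salinity and 0.0490, 0.0661 and 0.0590 in the combination. Each stressed library was below each control library. These are the members of the array with the lowest and the highest log2 fold change in heat, so the ratio restates that difference on counts of 1 library.

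In the chromosome 3 array the ratio of Solyc03g005780 to Solyc03g005760 was 1.91, 1.66 and 2.20 in control, 0.776, 0.716 and 0.825 in heat and 0.439, 0.803 and 0.537 in the combination. In salinity it was 1.91, 2.92 and 2.52. Each heated library was below each unheated library.

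The chromosome 8 neighbours kept nearly the same ratio. Solyc08g067320 to Solyc08g067330 stood between 0.858 and 1.00 in each of the 12 libraries. How reads that fit both were counted is not known, so their values cannot be taken as 2 independent measurements.

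Solyc12g006140 and Solyc03g115900 lie on different chromosomes. The ratio of the former to the latter was 1.86, 1.77 and 2.75 in control and 3.40, 7.56 and 4.07 in salinity. It was 0.681, 0.505 and 0.694 in heat and 0.590, 1.44 and 0.882 in the combination. The salinity libraries were each above, and the heat and combination libraries each below, the control range.

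**Figure D5:**
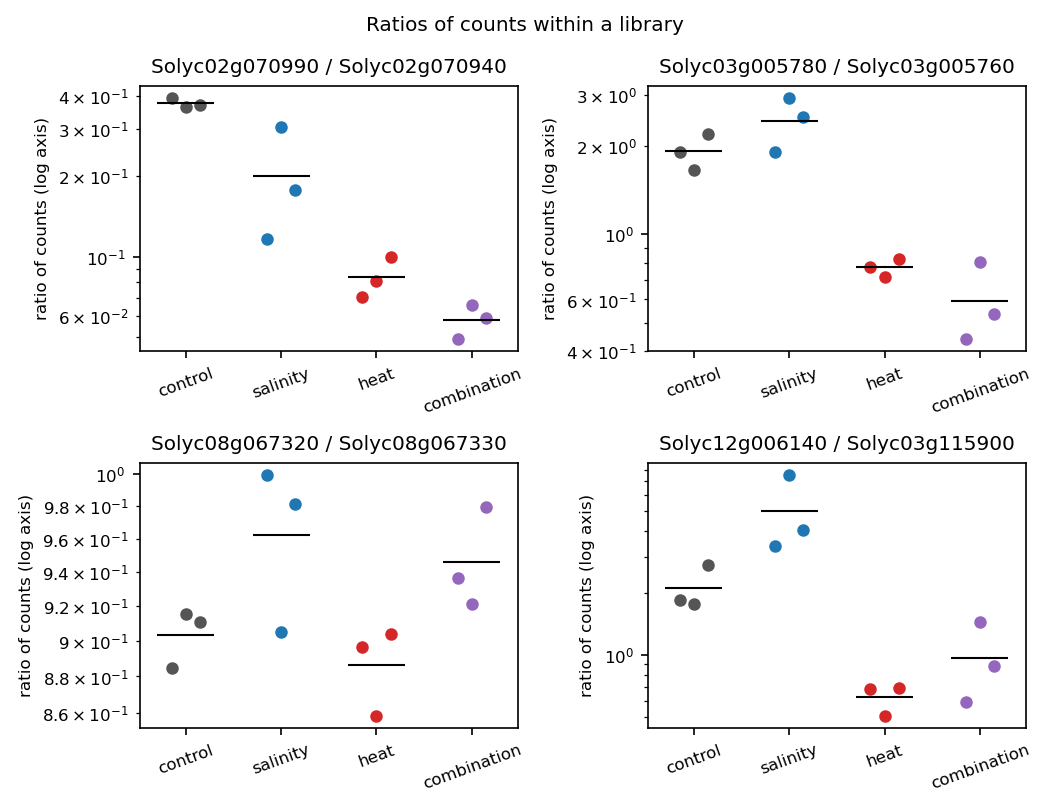
Ratios of counts of 2 gene models within each library on log axes, for 4 pairs; points are libraries and lines are means of 3. The chromosome 8 pair stays near 1 in every group, the chromosome 2 pair falls in every stress, the chromosome 3 pair is low in the heated groups, and the ratio of Solyc12g006140 to Solyc03g115900 is high in salinity and low in the heated groups.

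Expressed as a share of the family's counts, which also needs no scaling, the make-up of the family shifted with the stress. Solyc12g006140 held 4.07% ± 0.379 in heat, 4.79% ± 1.16 in the combination and 11.6% ± 2.23 in salinity, against the 7.50% ± 0.828 in control given above. Solyc03g005780 held 6.33% ± 0.793 in control, 3.60% ± 0.329 in heat, 3.39% ± 0.910 in the combination and 8.95% ± 0.602 in salinity. Solyc06g063370 had its lowest share in salinity, with 8.47% ± 0.297 in control, 9.66% ± 0.249 in heat, 8.09% ± 0.291 in the combination and 4.82% ± 0.547 in salinity. Solyc03g115900 held 3.60% ± 0.463 in control, 6.55% ± 0.574 in heat, 5.24% ± 1.02 in the combination and 2.49% ± 0.559 in salinity. Solyc07g047850 had a larger share in each stressed group than the 7.80% ± 0.344 of control, at 9.53% ± 0.298 in heat, 11.3% ± 0.515 in the combination and 10.2% ± 0.873 in salinity. The share of Solyc02g071010 changed little, with 5.57% ± 0.147 in control, 5.33% ± 0.124 in heat, 5.53% ± 0.328 in the combination and 5.48% ± 0.474 in salinity, although its level fell in heat as given above. These errors are SDs over 3 libraries. A share of the family rises for a member that falls less than the rest, so shares do not give levels. Mean CPM of Solyc07g047850 was 13024 in control and 8534 in heat, and that of Solyc03g115900 was 5962 and 5839.

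Summing the counts of members whose IDs lie close together removes any exchange of reads within an array. It turned the 29 gene models into 18 rows. The chromosome 2 array of 8 members summed to 40967 ± 4819 CPM in control, 17167 ± 2124 CPM in heat, 17485 ± 4946 CPM in the combination and 37695 ± 13803 CPM in salinity (SD, n = 3 each). The chromosome 3 array of 3 members summed to 19572 ± 3786, 8769 ± 1195, 9948 ± 2822 and 25632 ± 9383 CPM in the same order.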

How the data were processed

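RNA was measured in 12 tomato leaf libraries, 3 per group. Per the labels, messenger RNA was enriched with Dynabeads, and paired ends were read on an Illumina HiSeq2000. The submitters' processing notes name Trimmomatic 0.33 and Bowtie2 2.3.4. The counting program, strandedness and treatment of reads that fit several gene models are not given in the sources used here, so very similar copies are uncertain. The authors deposited whole-number counts per gene model, not normalized. Between 66.0% and 69.8% of counts from 1 to 20 were even, so both mates may have been counted.

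The members, gene lists and alternatives were chosen with earlier results of these data known. One edgeR 4.0.16 quasi-likelihood model (R 4.3.3; TMM, filterByExpr, 4 groups, 12 libraries) was fitted to 20717 gene models, with Benjamini-Hochberg adjustment per comparison. The common dispersion was 0.0667. DESeq2 1.42.0 was an alternative. Values in each control and heat library are given for the 14 members of highest mean CPM called in any comparison, with a mean of at least 50 CPM. Values in salinity or combination libraries are given for some of them. For others, named after their values were seen, the libraries of some groups are given. Lists of other photosynthesis genes were to be drawn from gene descriptions, which the reference table (SLM_r2.1) did not pair with these IDs, so none was used. Sequences are not shown for the same reason. 3 counts correspond to between 0.0326 and 0.0668 CPM, for counting error only.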

Additional observations from a re-analysis of the deposited data

How the results depend on the processing

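The fall of the family in heat held in the median of the members, which was below 0 in each alternative run, and that median relative to that of all tested gene models was -1.04 with TMM scaling and -1.03 with total counts. The number of calls in the comparisons that involve salinity depended on the scaling. The 6 members called in salinity against control kept their sign with total counts, while the median of the members went from 0.03 to -0.19. Calls in salinity against control rose from 6 to 11 with total counts (2 higher, 9 lower), against heat calls for the combination from 0 to 2, and interaction calls from 0 to 3. The mean summed level in heat was 102020 with total counts. The share of all tested gene models called was computed only for the edgeR fit used in the Results. Counts of calls in the other fits, above and below, therefore have no such share beside them. Fitting only the groups compared gave 4 calls in salinity against control (6 with all libraries), 26 in heat against control (21), 19 in the combination against control (18), 13 in the combination against salinity (19) and 1 in the combination against heat (0), and the DESeq2 Wald test 1 interaction call. Summing close neighbours, which leaves 18 rows by construction, gave 12, 10 and 11 calls in heat against control, the combination against control and the combination against salinity, 5 in salinity against control (1 higher, 4 lower) and 0 in the combination against heat and for the interaction.

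Leaving out 1 library at a time gave 4 to 8 calls in salinity against control, 13 to 24 in heat against control, 10 to 20 in the combination against control, 13 to 20 in the combination against salinity, 0 to 1 in the combination against heat and 0 to 1 for the interaction. The summed level ranged from 157268 to 174126 CPM in control, 132815 to 193078 in salinity, 85336 to 91979 in heat and 81557 to 100859 in the combination.

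Among the member values followed across the fits, changes of sign were found where the value was near 0 or not called. In the combination against heat, 19 of the 28 members were above 0. Without combination replicate 2 it was 9, and without combination replicate 1 it was 22. In salinity against control 14 were above 0, with 7 and 18 without salinity replicates 2 and 1. For the interaction 17 were above 0, with 24 and 11 without these libraries. Solyc09g014520 in the combination against salinity was -0.0006 and became 0.48 with total counts (adjusted p = 0.0115), 0.0096 without a filter, 0.025 with the replicate block, 0.33 without salinity replicate 2, and 0.10 and 0.052 without combination replicates 1 and 3, with a low of -0.24 without salinity replicate 1. Solyc06g063370 in that comparison went from -0.07 to 0.38 with total counts (adjusted p = 0.00911), 0.13 without salinity replicate 2 and 0.038 without combination replicate 1, with a low of -0.26 without combination replicate 2. Solyc12g009200 in salinity against control went from 0.53 to -0.079 without salinity replicate 2 and 0.86 without salinity replicate 1. Solyc03g115900 in heat against control went from -0.03 to 0.27 with total counts, and lay between -0.17 and 0.011 with 1 library left out. The cause was not tested.

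No pairing of the libraries by the replicate numbers of the titles was seen, which does not show that there was none. Deviations of same-numbered libraries had correlations from -0.577 to 0.463 over 18 pairs. Their mean was -0.013, beside 0.006 over 36 other pairs, and 4 of 12 libraries correlated best with their own number. With the replicate number as a block, 8, 22, 19, 19, 0 and 0 members were called in the 6 comparisons in the order just given.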
